A study of Mus musculus with 12 samples.

Results

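Sterol synthesis was followed in mouse heart through 8 genes, the enzyme genes Hmgcs1, Idi1, Fdps, Fdft1, Sqle and Lss and the regulator genes Insig1 and Srebf2, out of 18069 genes that have a probe of a single symbol on the array. Each gene was represented by its brightest probe carrying its symbol alone in the platform annotation. Hearts came from Balb/c mice gavaged with 30 mg/kg of a compound labelled DMA, which the labels do not spell out, or with its vehicle DMSO, and taken 24 h or 48 h later. The 4 groups (DMA at 24 h, DMSO at 24 h, DMA at 48 h and DMSO at 48 h) had 3 arrays each. The labels call the arrays biological replicates, while the design text says that heart RNA was isolated as a pool, so p-values here measure the spread between these samples, which may be partly technical. The sources used here do not give sex, age or animals per array. Levels are deposited log2 intensities of 1-colour arrays, and a difference of 1 is a doubling.

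Cells make cholesterol from acetyl-CoA through the mevalonate pathway. When membrane cholesterol in the endoplasmic reticulum is low, the precursor of the transcription factor SREBP-2 travels to the Golgi, is cut there, and its active part switches on the enzyme genes of the pathway. INSIG proteins hold the precursor back when sterols are plentiful, and INSIG-1 is itself a target of SREBP factors, which closes a feedback loop. Because the enzymes share this control, their transcripts often move together in tissues such as liver. The liver is the main site of this synthesis, and the heart also takes up cholesterol carried by lipoproteins.

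The promoters are shown because SREBP-2 acts there on sterol response elements with the help of NF-Y, which binds CCAAT boxes. RefSeq promoter windows on GRCm38.p6 were matched for 5 of the 8 genes (Hmgcs1, Idi1, Insig1, Lss and Srebf2), and the 250 bases before the start were searched on both strands. The letters TCACCCCA, a form of the sterol response element chosen after these sequences had been read, were found in 2 of the 5, and in 1.34% of 32851 promoters of the same length. CCAAT was found in 5 of 5 windows against 33.8% of all promoters, and GGGCGG, the core of the site bound by Sp1, in 5 of 5 against 32.7%. These motifs do not overlap in the 2 windows printed. The pair of windows with TCACCCCA follow, 5′ to 3′, with TCACCCCA and the CCAAT box (written ATTGG where it lies on the other strand) in capitals. The first is chr13:119690101-119690350 and the second chr15:82147019-82147268, both on the plus strand.
Hmgcs1: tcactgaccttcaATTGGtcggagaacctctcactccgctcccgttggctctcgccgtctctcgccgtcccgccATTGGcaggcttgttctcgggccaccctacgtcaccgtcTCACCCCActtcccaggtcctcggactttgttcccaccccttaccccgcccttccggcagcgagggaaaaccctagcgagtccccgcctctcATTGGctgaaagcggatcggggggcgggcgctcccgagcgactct
Srebf2: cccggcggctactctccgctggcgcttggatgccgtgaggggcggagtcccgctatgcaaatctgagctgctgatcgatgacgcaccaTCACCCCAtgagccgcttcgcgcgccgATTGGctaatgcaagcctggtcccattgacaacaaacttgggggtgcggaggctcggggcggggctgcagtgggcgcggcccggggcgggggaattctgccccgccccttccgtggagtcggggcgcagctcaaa
In the Hmgcs1 window the element begins 137 bases before the start, and CCAAT boxes on the minus strand begin 237, 176 and 45 bases before it. In the Srebf2 window the element begins 162 bases before the start and a CCAAT box 135 bases before it. A match describes letters and not a bound site.

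All 12 arrays gave values for between 32230 and 35905 of 36227 probes, and their number limits the precision. Array medians lay between 6.03 and 6.04 at 24 h and between 6.35 and 6.36 at 48 h. The scaling method is not known, and with medians this close within a time and apart between times, levels were compared within a time only. DMA 24 h replicate 3 stood apart, with a correlation of 0.742 with the other arrays of its time against 0.927 to 0.963 for the remaining 11, and with 503 probes at its lowest value of 1.37. DMA 48 h replicate 3 drifted along the probe numbers: the running median of its deviation from the other 48 h arrays, over 1000 probes, ranged between 0.52 and -1.17. DMSO 24 h replicate 2 had the lowest correlation of the 11, and its running median against the other 24 h arrays ranged between -0.26 and 0.70. Of 10 cardiomyocyte markers, Myh6 and Ryr2 had values on all 12 arrays and Tnnc1 on 11, while Actc1 and Atp2a2 had none on any array, and Tnnt2, Tnni3, Myl2, Pln and Mybpc3 had values on 1 to 3. In bulk tissue, fewer cells of a type and less RNA per cell cannot be told apart.

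The 8 probes differed widely in brightness. Averaged over arrays, the log2 level was 10.93 for the Fdps probe, 7.71 for Fdft1, 7.65 for Idi1, 6.38 for Hmgcs1, 6.36 for Srebf2, 5.14 for Lss, 4.85 for Sqle and 3.84 for Insig1. These are probe brightnesses, and probes of different genes cannot be ranked by abundance. Against each array's own median, Fdps and Idi1 lay above it on 12 of 12 arrays, Fdft1 on 11 of 12, Srebf2 on 8 of 12, Hmgcs1 on 5 of 11, Lss on 1 of 12, Sqle on 1 of 11 and Insig1 on 0 of 11. In all, 3 of the 96 values were missing.

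**Figure D1:**
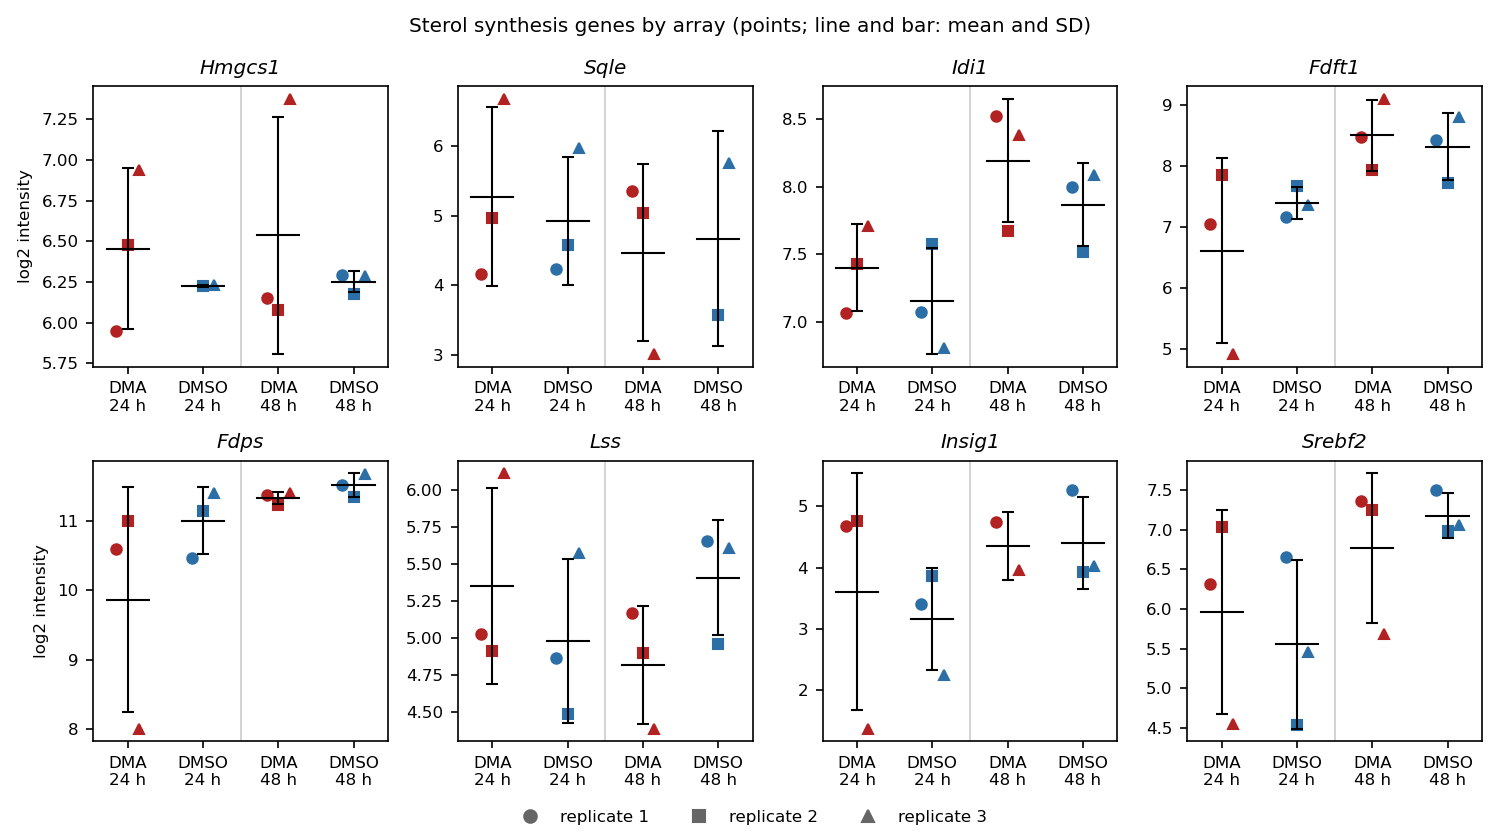
Log2 intensity of each of the 8 genes (y axis, scaled per gene) in DMA and DMSO hearts at 24 h and 48 h (x axis). Symbols are single arrays by replicate number, and lines with bars give the group mean and SD. The DMA and DMSO points overlap in every panel at both times, and DMA 24 h replicate 3 is the lowest 24 h array for Fdft1, Fdps and Insig1 and the highest for Hmgcs1, Sqle, Idi1 and Lss.

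None of the 8 genes passed the test of DMA against DMSO at either time. Linear models fitted with limma over 35401 probes, with Benjamini-Hochberg adjustment over all of them and a threshold of 0.05, called 0 of 8 genes at 24 h and 0 of 8 at 48 h, and 0.0% of all probes at each time. At an unadjusted p of 0.05 the counts were also 0 of 8 at both times, against 3.03% of all probes at 24 h and 1.4% at 48 h. Among the settings tried, 4 gave a gene of the 8 an unadjusted p under 0.05 at 24 h: Insig1 and Srebf2 with array weights, Insig1 without DMA 24 h replicate 3 and with lowest values set to missing, and Fdps and Fdft1 with DMA 24 h replicate 2 left out. Leaving out that replicate 2 put 2813 of 34580 probes under 0.05, and leaving out replicate 3 put 1074 of 34254. Over all settings the count of probes was 402 to 2813 at 24 h. At 24 h 6 genes were higher and 2 lower in DMA hearts, with a median log2 difference of 0.30, against 0.09 over all 17611 genes tested, of which 55.2% were higher. At 48 h 3 genes were higher and 5 lower, with a median of -0.12, against 0.01 over all genes, of which 51.4% were higher. The 95% intervals reach as low as -2.56 (Fdps) and as high as 2.36 (Insig1) at 24 h. At 48 h they reach as low as -2.37 (Sqle) and as high as 2.09 (Insig1). Changes of that size and direction in those genes are not excluded by these arrays. Other intervals are narrower, such as -0.57 to 1.06 for Idi1 at 24 h. Each interval uses a spread pooled over the 4 groups, so those at 48 h also carry the scatter of the 24 h arrays.

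Hmgcs1 encodes cytosolic HMG-CoA synthase, an early enzyme of the mevalonate pathway. Its probe gave log2 levels of 5.95, 6.48 and 6.94 in DMA hearts at 24 h, against 6.22 and 6.23 in DMSO hearts, where replicate 1 had no value. The DMA arrays lay on both sides of the close DMSO pair. The means were 6.46 ± 0.49 (SD, n = 3) in DMA hearts and 6.23 ± 0.0043 (SD, n = 2) in DMSO hearts, which differed by 0.23 (SE 0.474, limma adjusted p = 0.923). At 48 h the levels were 6.15, 6.08 and 7.38 in DMA hearts, against 6.29, 6.18 and 6.29 in DMSO hearts, which differed by 0.28 (SE 0.424, limma adjusted p = 1). The high DMA value at each time was that of replicate 3, an array that stood apart or drifted, and the gene deviated by 0.71 and 1.20 from the other arrays of its time there. Without that array the log2 difference was -0.01 at 24 h and -0.14 at 48 h. Here and below, an array was left out with the same-numbered array of the other treatment kept.

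Idi1 encodes the isomerase that interconverts the 5-carbon isoprenoid units. Its levels were 7.07, 7.43 and 7.71 in DMA hearts at 24 h, against 7.08, 7.58 and 6.81 in DMSO hearts, and the groups were interleaved. The difference of 0.25 (SE 0.372, 95% interval -0.57 to 1.06, limma adjusted p = 0.899) was smaller than the SD within the groups. The 48 h levels were 8.52, 7.67 and 8.39 in DMA hearts, against 7.99, 7.51 and 8.09 in DMSO hearts. DMA was above DMSO in all 3 same-numbered pairs, by 0.53, 0.16 and 0.30, yet the lowest DMA array lay below 2 of the 3 DMSO arrays. The difference was 0.33 (SE 0.372, 95% interval -0.49 to 1.14, limma adjusted p = 1). Idi1 was the gene with the smallest standard error of the 8, and its sign at each time was the same with any 1 array left out.

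Fdps encodes farnesyl diphosphate synthase, whose product feeds sterols, dolichol, ubiquinone and protein prenylation. Its levels were 10.59, 10.99 and 8.004 in DMA hearts at 24 h, against 10.47, 11.13 and 11.41 in DMSO hearts. The first 2 DMA arrays lay within the DMSO range, and the third lay below every other array of the study. The means were 9.86 ± 1.62 in DMA hearts and 11.004 ± 0.48 in DMSO hearts (SD, n = 3 each), a difference of -1.14 (SE 0.644, 95% interval -2.56 to 0.27, limma unadjusted p = 0.103, adjusted p = 0.871). Leaving out DMA 24 h replicate 3 gave -0.21, and leaving out replicate 2 of that group gave -1.71 (limma unadjusted p = 0.023, adjusted p = 0.547). At 48 h the levels were close to each other, 11.37, 11.23 and 11.40 in DMA hearts against 11.52, 11.35 and 11.68 in DMSO hearts. DMA was below DMSO in all 3 pairs, by -0.15, -0.11 and -0.28, and the difference was -0.18 (SE 0.644, 95% interval -1.59 to 1.23, limma adjusted p = 1). This SE is pooled over the 4 groups and includes the low DMA 24 h array. With DMA 24 h replicate 3 left out, the SE at 48 h was 0.281 (limma adjusted p = 0.9999).

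Fdft1 encodes squalene synthase, the first enzyme committed to sterols. Its levels were 7.05, 7.86 and 4.92 in DMA hearts at 24 h, against 7.16, 7.68 and 7.37 in DMSO hearts. As for Fdps, 1 DMA array lay far below the rest. The others, at 7.05 and 7.86, lay below and above the DMSO range. The difference was -0.79 (SE 0.655, limma adjusted p = 0.871), 0.05 without DMA 24 h replicate 3, and -1.42 with replicate 2 of that group left out instead (limma unadjusted p = 0.0472, adjusted p = 0.547). The 48 h levels were 8.48, 7.93 and 9.11 in DMA hearts, against 8.44, 7.73 and 8.81 in DMSO hearts. Within each group replicate 2 was lowest and replicate 3 highest, so the spread between numbers was wider than the pair differences of 0.04, 0.20 and 0.30, all of them with DMA higher. The 48 h difference was 0.18 (SE 0.655, 95% interval -1.26 to 1.62, limma adjusted p = 1), and -0.12 without DMA 48 h replicate 3. The SE at 48 h was 0.397 with DMA 24 h replicate 3 left out, as the spread is pooled over the groups of both times.

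Sqle encodes squalene epoxidase, which adds the first oxygen on the way to the sterol ring. Its levels at 24 h were 4.16, 4.97 and 6.68 in DMA hearts, against 4.23, 4.57 and 5.97 in DMSO hearts. Replicate 3 was the high array in both groups, and the 2 groups overlapped. The difference was 0.34 (SE 0.876, limma adjusted p = 0.938), and -0.36 without DMA 24 h replicate 3. The latter value keeps the high DMSO replicate 3, while pairs 1 and 2 differed by -0.07 and 0.39. At 48 h the levels were 5.35, 5.04 and 3.01 in DMA hearts, against 3.57 and 5.76 in DMSO hearts, where replicate 1 had no value. The 2 pairs that could be formed went opposite ways, 1.47 for number 2 and -2.75 for number 3. The difference was -0.20 (SE 0.98, 95% interval -2.37 to 1.98, limma adjusted p = 1), and 0.53 without DMA 48 h replicate 3. Sqle had the widest standard error of the 8 at both times.

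Lss encodes lanosterol synthase, which closes the sterol ring. Its levels were 5.02, 4.91 and 6.11 in DMA hearts at 24 h, against 4.87, 4.49 and 5.58 in DMSO hearts. At 48 h they were 5.17, 4.90 and 4.39 in DMA hearts, against 5.66, 4.96 and 5.61 in DMSO hearts. The groups overlapped at both times, but DMA was above DMSO in 3 of 3 pairs at 24 h, by 0.16, 0.42 and 0.53. It was below DMSO in 3 of 3 at 48 h, by -0.49, -0.06 and -1.22. This pattern of signs was shared by 1.82% of all probes with 6 pairs. Lss was picked from the 8 genes because of the pattern, so that share does not measure how rare it is. The log2 difference was 0.37 (SE 0.443, 95% interval -0.60 to 1.34, limma adjusted p = 0.882) at 24 h and -0.59 (SE 0.443, 95% interval -1.56 to 0.38, limma adjusted p = 1) at 48 h. Without DMA 24 h replicate 3 the 24 h difference was -0.01. That value keeps the high DMSO 24 h replicate 3 (5.58), and pairs 1 and 2 still had DMA higher, by 0.16 and 0.42. Without DMA 48 h replicate 3 the 48 h difference was -0.38, again with its DMSO partner kept. On DMA 48 h replicate 3 Lss deviated by -0.78, and the probes around it by -0.88 at the median.

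Insig1 encodes the sterol-sensing anchor of the SREBP precursor and is among the direct readouts of SREBP activity in cultured cells. It was the dimmest of the 8 probes. Its levels at 24 h were 4.67, 4.76 and 1.37 in DMA hearts, against 3.40, 3.86 and 2.24 in DMSO hearts. The 2 higher DMA values lay above all 3 DMSO arrays, and the low one was the lowest value that DMA 24 h replicate 3 held. The difference was 0.44 (SE 0.865, 95% interval -1.48 to 2.36, limma adjusted p = 0.918). Without that array it was 1.55 (SE 0.569, limma unadjusted p = 0.0243, adjusted p = 0.9999), and the lowest adjusted p of this difference under any setting tried was 0.761. At 48 h the levels were 4.74 and 3.96 in DMA hearts, where replicate 2 had no value, against 5.27, 3.92 and 4.02 in DMSO hearts, which differed by -0.06 (SE 0.967, limma adjusted p = 1). The 48 h groups overlapped, and both pairs had DMA lower, by -0.53 and -0.07.

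Srebf2 encodes SREBP-2 itself. Its brightest probe gave 6.31, 7.03 and 4.54 in DMA hearts at 24 h, against 6.66, 4.54 and 5.46 in DMSO hearts. Low and high values stood in both groups, and the pairs differed by -0.35, 2.49 and -0.92. The difference was 0.41 (SE 0.717, 95% interval -1.16 to 1.98, limma adjusted p = 0.91), and 1.12 without DMA 24 h replicate 3. It was -0.10 without DMSO 24 h replicate 2, which held the lowest value of this probe and made the pair difference of 2.49. At 48 h the levels were 7.37, 7.25 and 5.68 in DMA hearts, against 7.50, 6.98 and 7.05 in DMSO hearts, which differed by -0.41 (SE 0.717, limma adjusted p = 1). The low array was DMA 48 h replicate 3, without which the difference was 0.13. The other 2 Srebf2 probes were dimmer and did not share a sign at 24 h, with differences of 1.38 (SE 1.40) and -1.23 (SE 0.783). Each of these differences included a value at the lowest of its array. It was -0.44 on DMSO 24 h replicate 3 for the first and 1.37 on DMA 24 h replicate 3 for the second. At 48 h those probes gave 0.75 and 0.04.

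**Figure D2:**
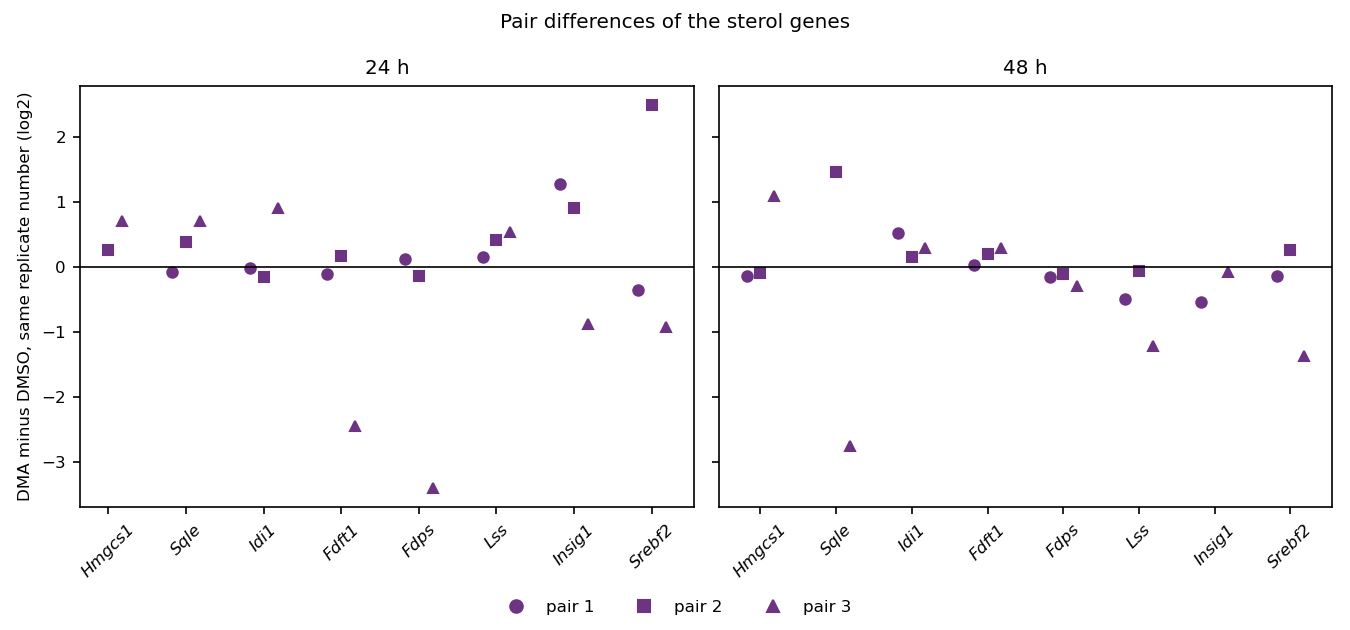
DMA minus DMSO log2 difference between arrays of the same replicate number (y axis) for each gene (x axis), at 24 h on the left and 48 h on the right; each symbol is a pair. At 24 h only Lss has 3 of 3 pairs above 0, and at 48 h Idi1 and Fdft1 have 3 of 3 above 0 and Fdps and Lss 3 of 3 below it.

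The pair differences of the 8 genes went both ways at both times. DMA was higher in 13 and lower in 10 of the 23 pairs at 24 h, and higher in 9 and lower in 13 of the 22 pairs at 48 h. All 8 genes share the same 3 array pairs per time, so these counts are not independent. The share of higher pairs over all probes was not counted, and no lean of the pathway was tested. At 24 h 1 gene, Lss, was higher in 3 of 3 pairs and 0 were lower in 3 of 3, where 13.8% and 9.05% of all probes with 3 pairs did so. At 48 h 2 genes were higher in all 3 pairs (Idi1 and Fdft1) and 2 lower (Fdps and Lss), where 15.6% and 11.1% of probes did so. In 0 of 8 genes did the DMA and DMSO arrays separate without overlap at either time. For all probes the groups separated with DMA higher in 4.51% and lower in 3.48% at 24 h, and higher in 4.42% and lower in 2.79% at 48 h.

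The effect of DMA was not shown to differ between the times for any of the 8 genes. The difference of the 2 effects, 48 h minus 24 h, was positive in 4 genes and negative in 4, with limma adjusted p = 0.999 for each, and it passed the threshold for 0.0% of all probes. At an unadjusted p of 0.05 it passed for 0 of 8 genes and 1.96% of all probes. The genes with the largest sizes were Fdft1, at 0.97 (SE 0.926), Fdps, at 0.96 (SE 0.911), and Lss, at -0.96 (SE 0.627, 95% interval -2.34 to 0.41). Without DMA 24 h replicate 3 these were 0.13, 0.03 and -0.58, and the largest sizes were those of Insig1, at -1.61 (SE 0.805), and Srebf2, at -1.53 (SE 0.88), with limma adjusted p = 0.982 for each. Deposited levels were higher at 48 h than at 24 h in 6 of 8 genes in DMA hearts and 7 of 8 in DMSO hearts, but with scaling that may differ between the times this is not a measured change.

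Large deviations of these genes sat on 2 DMA arrays, though not only there, as the Srebf2 value of 4.54 on DMSO 24 h replicate 2 shows. On DMA 24 h replicate 3 Fdps deviated by -2.99 from the median of the other 24 h arrays, Insig1 by -2.49, Fdft1 by -2.45 and Srebf2 by -1.77, while Sqle deviated by 2.11 and Lss by 1.20. Deviations at least that large were held by 8.61% of all probes on that array for Fdps and 25.4% for Srebf2, so the sterol genes were among many. Without this array the 24 h median over the 8 genes was 0.02. On DMA 48 h replicate 3 Sqle deviated by -2.19, which 2.51% of probes reached, Srebf2 by -1.57 and Lss by -0.78. These 3 genes have the highest probe numbers of the 8, where the running median of the array was -0.37 at Sqle, -0.87 at Srebf2 and -0.88 at Lss. With the running median taken off every array, a setting chosen after the drift was seen, the 48 h median over the 8 genes was -0.02, and the 48 h difference was -0.25 for Lss and -0.08 for Srebf2.

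**Figure D3:**
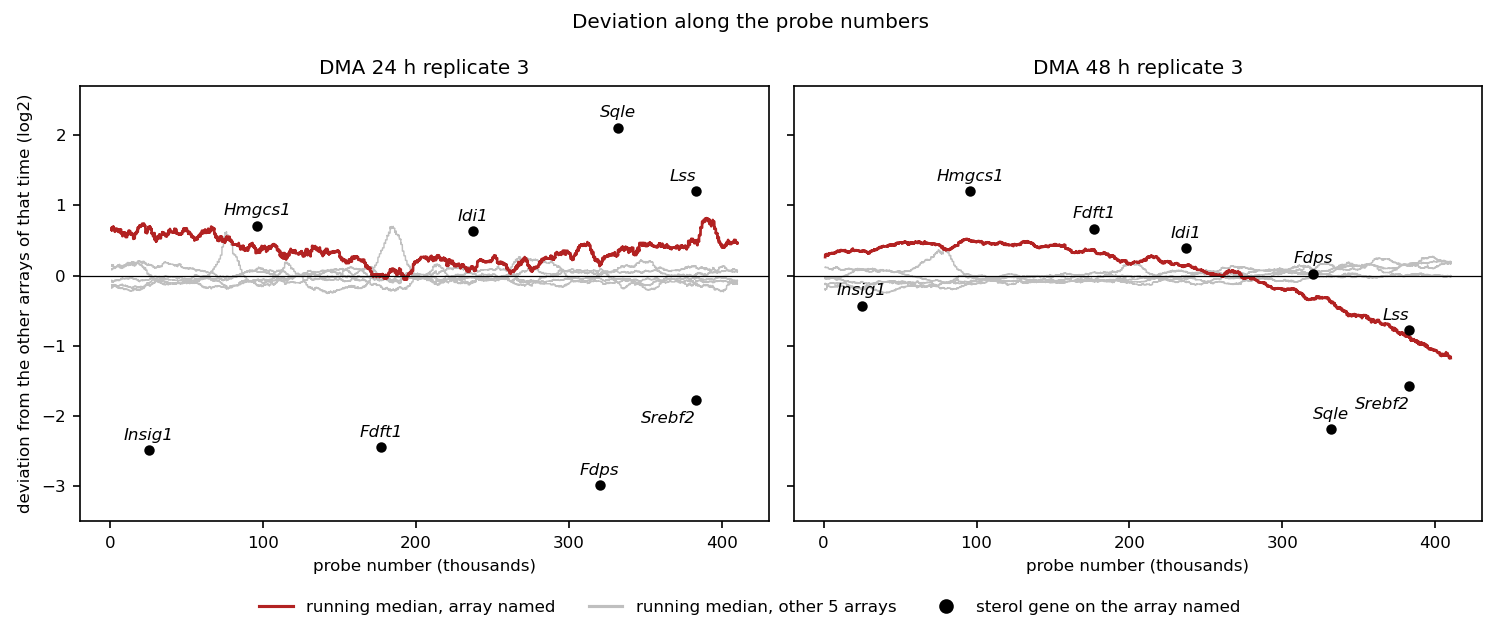
Log2 deviation of an array from the median of the other arrays of its time (y axis) along the probe numbers, given in units of 1000 (x axis), for DMA 24 h replicate 3 on the left and DMA 48 h replicate 3 on the right. Red lines are the running median of the named array, grey lines those of the other 5 arrays of that time, and black points the 8 genes on the named array. On DMA 48 h replicate 3 the red line reaches -1.17 at high probe numbers, and on DMA 24 h replicate 3 the genes scatter between -2.99 and 2.11.

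How far the genes varied together depended on the same arrays. After centring each gene within each time, the median Pearson correlation over the 28 gene pairs was -0.05, between -0.59 and 0.89, with 11 positive. Without DMA 24 h replicate 3 the median was 0.07 with 15 positive, and without both arrays it was 0.24 with 20 positive. Fdps and Fdft1, consecutive enzymes, correlated at 0.89 over 12 arrays and at 0.46 without DMA 24 h replicate 3. Sqle and Lss, consecutive enzymes further on, correlated at 0.85 over 11 arrays and at 0.79 without that array. Other consecutive enzymes did not with both arrays kept or with DMA 24 h replicate 3 left out. Idi1 and Fdps correlated at -0.36, and at 0.10 without DMA 24 h replicate 3. Fdft1 and Sqle correlated at -0.43, and at 0.06 without it. Without both arrays, however, Fdft1 and Sqle correlated at 0.64, close to Sqle and Lss at 0.67. In that setting Fdps and Fdft1 correlated at 0.58, and Idi1 and Fdps at 0.12. Idi1 and Fdft1 correlated at 0.01 over 12 arrays and at 0.78 without DMA 24 h replicate 3. The arrays of a time share their sampling time and scaling, and may share RNA pools, so these values describe this set of arrays.

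Among 12352 genes with values on all arrays, those most like the mean of the 5 sterol genes measured on every array were Vps39 (Pearson r 0.98 over 12 arrays), Gja5 (0.98), Zfp791 (0.98), Tubb1 (0.97) and Kcnq1 (0.97). Each was lower on DMA 24 h replicate 3 than on every other 24 h array. For Kcnq1, a cardiac potassium channel, that array read 5.63 against 8.02 to 9.06 on the other 24 h arrays, and for Gja5, which encodes connexin 40, it read 4.41 against 5.54 to 6.20. Without that array the correlations were between 0.93 and 0.96. The 5 genes were picked as the highest of 12352 on these same arrays, so neither set of values is a test of likeness.

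The rest of the pathway also gave no gene that passed the test. Of 59 related genes in 6 lists, 42 were tested and 0 were called at either time, and the rest are not analysed here. At 24 h 19 were higher and 23 lower in DMA hearts with a median of -0.05, and at 48 h 22 were higher and 20 lower with a median of 0.01. The smallest limma unadjusted p was 0.119 at 24 h and 0.27 at 48 h. Leaving out DMA 24 h replicate 3 gave 25 higher and 17 lower at 24 h, with a median of 0.06.

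The other enzymes of sterol synthesis, 11 tested of 15, were higher in 7 and lower in 4 at 24 h (median 0.20), and higher in 5 and lower in 6 at 48 h (median -0.04). Cyp51, the lanosterol demethylase, read 7.66, 7.79 and 3.96 in DMA hearts at 24 h, against 7.46, 7.75 and 8.08 in DMSO hearts, a difference of -1.30 (SE 0.853, limma adjusted p = 0.871). Its first 2 DMA arrays lay among the DMSO arrays, as for Fdps, and without DMA 24 h replicate 3 the difference was -0.04. Lbr, a sterol reductase of the inner nuclear membrane, had a 24 h difference of -1.36 with that array and -0.13 without it. Nsdhl, a sterol dehydrogenase, had a 24 h difference of 0.91 with it and 0.92 without it (limma adjusted p = 0.871 with all arrays). Its pairs differed by -0.18, 1.76 and 1.16, with DMA at 6.97, 7.19 and 7.05 and DMSO at 7.15, 5.43 and 5.89. At 48 h Dhcr7, the last enzyme of one branch to cholesterol, was higher in DMA hearts in 3 of 3 pairs, by 0.18, 0.27 and 0.27, a difference of 0.24 (SE 0.308, limma adjusted p = 1).

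Genes that control SREBP, 8 tested of 9, were higher in 3 and lower in 5 at 24 h (median -0.14), and higher in 4 and lower in 4 at 48 h (median -0.01). Erlin2, a membrane protein of the endoplasmic reticulum, had a 24 h difference of -2.32, and 0.08 without DMA 24 h replicate 3. Scap, which escorts SREBP to the Golgi, differed by 0.27 at 48 h, and Insig2 by 0.12. Mbtps2, the protease that makes the second cut, differed by -0.39 at 48 h.

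Genes of sterol uptake and transport, 4 tested of 10, were higher in 3 and lower in 1 at 24 h and split evenly at 48 h. Mylip, the ubiquitin ligase that removes lipoprotein receptors, was higher in DMA hearts in 3 of 3 pairs at 48 h, by 0.26, 0.28 and 0.22, a difference of 0.25 (SE 0.441, limma adjusted p = 1). Scarb1, the HDL receptor, differed by -0.94 at 48 h, and by 0.07 without DMA 48 h replicate 3. Of 4 genes of LXR signalling and sterol efflux tested out of 7, 1 was higher and 3 lower at 24 h, and 2 were higher at 48 h. The exporter Abca1 differed by 0.74 at 24 h and by -0.21 without DMA 24 h replicate 3.

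Of the isoprenoid and related genes, 5 tested of 8, 2 were higher and 3 lower at 24 h, and all 5 were higher at 48 h with a median of 0.03. Ggps1, which extends the product of Fdps to geranylgeranyl diphosphate, differed by -0.57 at 24 h and by 0.34 without DMA 24 h replicate 3. The 10 genes of fatty acid synthesis, targets mainly of SREBP-1, were higher in 3 and lower in 7 at 24 h (median -0.17), and higher in 4 and lower in 6 at 48 h (median -0.18). Fasn, the fatty acid synthase, differed by -1.39 at 24 h and by -0.03 without DMA 24 h replicate 3. Acaca, which supplies its malonyl-CoA, differed by -0.67 with that array and -0.62 without it. The Acaca pairs at 24 h differed by -0.21, -0.28 and -1.51. For Acly, which makes cytosolic acetyl-CoA, the 48 h difference was -0.79, and 0.03 without DMA 48 h replicate 3.

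**Figure D4:**
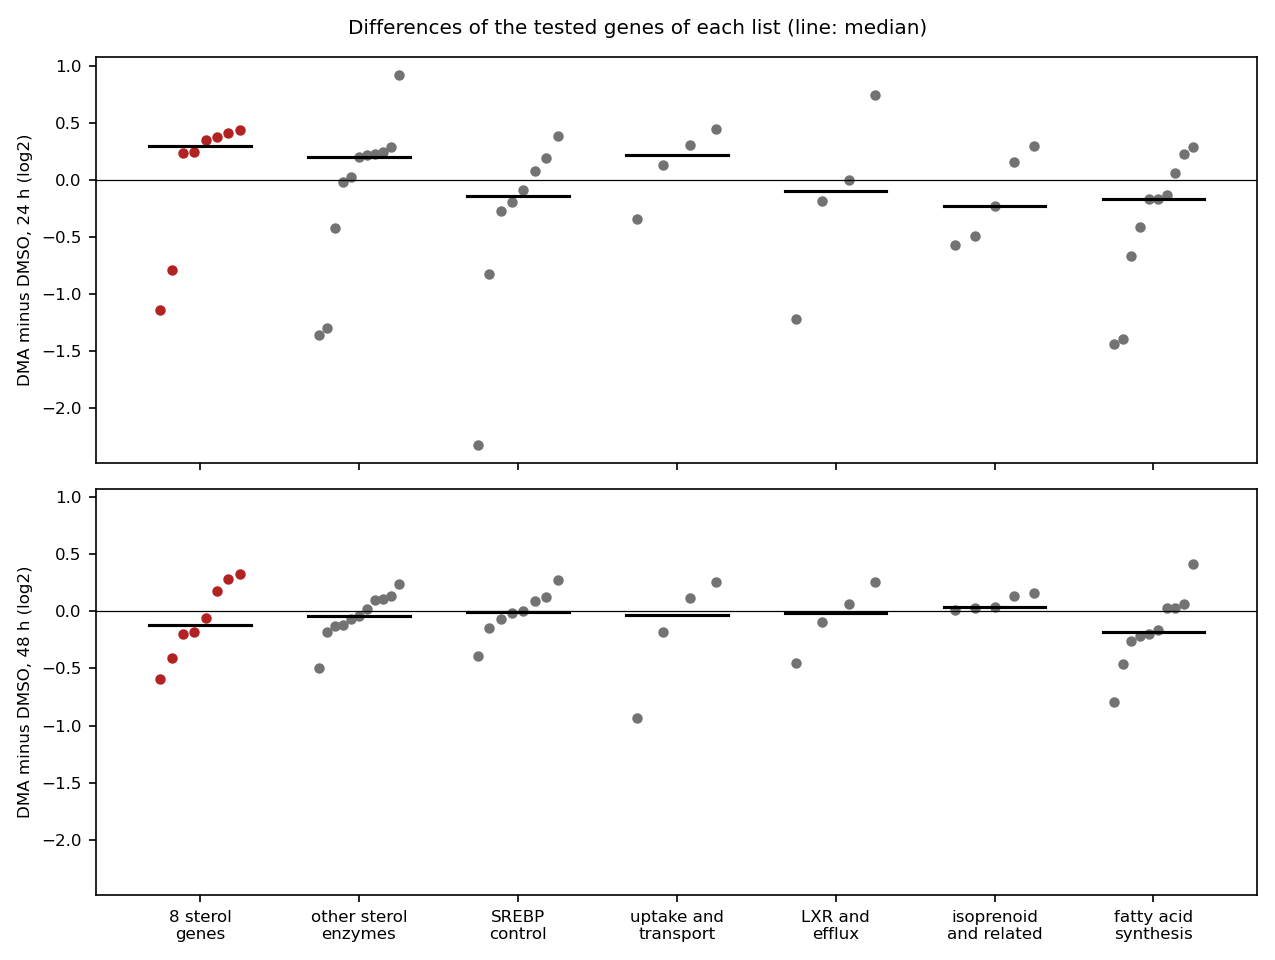
DMA minus DMSO log2 difference (y axis) of each tested gene in the 8 sterol genes (red) and the 6 related lists (grey) along the x axis, at 24 h above and 48 h below; black lines are medians and no gene passed the test. Differences of the related genes lie between -2.32 and 0.91 at 24 h and between -0.94 and 0.41 at 48 h.

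Markers of other cells were also read beside these counts. At 48 h 10 of 10 endothelial markers were lower in DMA hearts with a median of -0.48, as were 5 of 6 macrophage markers with a median of -0.38, and 0 of either list passed the test. Much of this lay on DMA 48 h replicate 3, where 10 of 10 endothelial and 5 of 6 macrophage pairs had DMA lower. In pair 1 these counts were 8 of 10 and 2 of 5, and in pair 2 they were 5 of 8 and 0 of 6. With DMA 48 h replicate 3 left out, 6 of 10 endothelial markers were lower with a median of -0.09, and 1 of 6 macrophage markers with a median of 0.29. At 24 h 5 of 10 endothelial markers and 5 of 6 macrophage markers were higher, with medians of 0.11 and 0.56. Without DMA 24 h replicate 3 the counts were 9 of 10 and 6 of 6, with medians of 0.79 and 0.48. The pairs at 24 h were uneven. DMA was lower in 5 of 9 endothelial and 3 of 6 macrophage markers in pair 1. These counts were 2 of 9 and 0 of 6 in pair 2, and 5 of 10 and 2 of 5 in pair 3. Over the 6 endothelial markers measured on every array, the mean log2 level per array ranged from 7.60 to 9.47 in DMA hearts at 48 h, against 8.70 to 9.55 in DMSO hearts, and the ranges overlapped. Of the remaining marker lists at 48 h, 4 of 8 fibroblast, 4 of 5 adipocyte, 1 of 3 erythroid, 4 of 6 liver and 1 of 3 cardiomyocyte markers tested were higher. At 24 h the counts were 4 of 8, 2 of 5, 2 of 3, 1 of 6 and 2 of 3 in the same order of lists, and 0 passed the test at either time. The part of these cells in the differences of the sterol genes was not tested.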

How the data were processed

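Hearts in 4 groups of 3 were measured on 1-colour arrays: per the labels' protocols, polyA RNA was copied to biotinylated cRNA and stained with Cy5-streptavidin. The values are the log2 intensities deposited by the authors; the background correction, scaling and rule for missing values are not given in the sources used here. Within a time the arrays have nearly equal quantiles, which differ between the times.

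Probes were named through GEO's platform annotation (21615 with 1 symbol, 681 with several, which were not used, and 13931 with none). Probes with at least 2 values in each group (35401 of 36227) were fitted as 4 groups with limma 3.58.1 (lmFit and eBayes, R 4.3.3), with Benjamini-Hochberg adjustment over all of them. Each gene took its brightest probe. Of the 8 genes, 7 have 1 probe and Srebf2 has 3. From each related list the 3 genes with the smallest p were eligible for naming. The fit was tested on simulated data with known changes. Tables and plots used Python 3.11.15 and matplotlib 3.10.9.

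The members and lists were chosen with earlier results of these data known. Same-numbered DMA and DMSO arrays deviated together, with correlations of 0.105 to 0.19 at 24 h and 0.276 to 0.335 at 48 h, and on that basis equal numbers were treated as pairs, which the labels neither state nor deny. Alternatives were a replicate block, other normalizations, filters, array weights, probe summaries and left-out arrays.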

Additional observations from a re-analysis of the deposited data

Results flagged for a closer look

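Lss was singled out because DMA was higher than DMSO in all 3 pairs at 24 h and lower in all 3 at 48 h. The difference of the DMA effect, 48 h minus 24 h, was -0.96 (SE 0.627, limma unadjusted p = 0.153, adjusted p = 0.999), so the test of the difference itself was not passed. Among 25002 probes with 6 pairs, 1.82% showed the same pattern of signs and 1.35% its opposite. The 24 h difference was 0.37 with all arrays and -0.01 without DMA 24 h replicate 3, with DMSO 24 h replicate 3 kept. Pairs 1 and 2 at 24 h differed by 0.16 and 0.42. The 48 h difference was -0.59 with all arrays and -0.25 after the running median along the probe numbers was removed, a setting chosen after seeing the data.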

How the results depend on the processing

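Over 23 settings, 505 values of single genes were recomputed; 456 had the sign of the reported value, 49 had the opposite sign, and 0 passed the test, with a smallest limma adjusted p of 0.547. With the replicate block, which takes the same-numbered arrays as pairs, 0 probes passed in any comparison, the median over the genes was 0.36 at 24 h and -0.24 at 48 h, and the only sign to turn was that of the Hmgcs1 difference between times, at -0.20. Without both DMA replicates 3 the 24 h median was -0.0097, with Hmgcs1 at -0.0102, Sqle at -0.36, Fdft1 at 0.0508 and Lss at -0.0097. In the same setting Hmgcs1 was at -0.14, Sqle at 0.53, Fdft1 at -0.12 and Srebf2 at 0.13 at 48 h, and the differences between times were -0.13, 0.89 and -0.17 for Hmgcs1, Sqle and Fdft1 and -4.9e-05 for Fdps. With array weights the 24 h median was -0.053, with Hmgcs1 at -0.0406, Sqle at -0.59 and Lss at -0.0653; at 48 h Sqle was at 0.12, Fdft1 at -0.0183 and Insig1 at 0.16, and the Sqle difference between times was 0.71. Over probes with a mean above the median the 48 h median, then of 5 genes, was 0.18. The mean of all Srebf2 probes gave 0.13 at 48 h, and removal of the trend along the probe numbers gave -0.0429 for the Hmgcs1 difference between times. The cause was not tested where fewer arrays or genes do not show it.

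With each of the 12 arrays left out in turn, the 24 h median over the genes lay between 0.0205 and 0.32, that at 48 h between -0.27 and 0.0289 (the high value without DMSO 48 h replicate 1), and that of the difference between times between -0.31 and 0.0813, and 0 to 1 probes passed at 48 h. That 1 probe, number 408101, carries no symbol here, was named after its value was seen, and was lower in DMA hearts at -5.21 without DMA 48 h replicate 1 (limma adjusted p = 0.00263). At 24 h the ranges were -0.0102 to 0.48 for Hmgcs1, -0.36 to 0.90 for Sqle, -1.42 to 0.0508 for Fdft1, -1.71 to -0.21 for Fdps, -0.0097 to 0.67 for Lss, -0.14 to 1.55 for Insig1 and -0.13 to 1.12 for Srebf2. At 48 h they were -0.14 to 0.51 for Hmgcs1, -0.64 to 0.53 for Sqle, -0.12 to 0.47 for Fdft1, -0.30 to 0.37 for Insig1 and -0.71 to 0.13 for Srebf2. For the difference between times they were -0.37 to 0.29 for Hmgcs1, -1.10 to 0.19 for Sqle, -0.13 to 0.34 for Idi1, -1.61 to 0.085 for Insig1, 0.13 to 1.60 for Fdft1, 0.0323 to 1.53 for Fdps, -1.26 to -0.58 for Lss and -1.53 to -0.28 for Srebf2. Idi1, Fdps and Lss at 48 h, and Idi1 and Fdps at 24 h, kept their sign with any 1 array left out. Probes at unadjusted p under 0.05 numbered 649 to 2813 at 24 h, 392 to 781 at 48 h and 495 to 1049 for the difference between times with 1 array left out, and 402 to 2813, 5 to 1040 and 123 to 1500 over all settings, some of which tested fewer probes. Hmgcs1, Sqle and Insig1 were not tested in settings that left a group with fewer than 2 values, or that required all 12 arrays.

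Limits: there are 3 arrays a group, described both as replicates and as a pool, a standard error of 0.372 to 0.98 on the log2 scale, an unknown scaling of the times, and dim probes for Insig1, Sqle and Lss, whose signal over background is unknown.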
